A study of Homo sapiens with 4 samples.

Results

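The interferon response genes followed here in FaDu cells are IFI6, IFI27, IFITM1, IFITM2, IFITM3, ISG15, ISG20, BST2, USP18 and UBE2L6. They were chosen by name, as rows of the deposited expression table with these symbols, and all 10 were found among the 25548 gene symbols of the table. FaDu is an established line of squamous carcinoma of the hypopharynx. One culture group received 5 µM 5-aza-2'-deoxycytidine (Aza), an analogue of cytidine whose incorporation depletes DNA methyltransferase activity and so reduces DNA methylation, on days 1 to 3, and 100 nM trichostatin A (TSA), which blocks histone deacetylases, on day 3. The other group was labelled as DMSO only, and the vehicle given for TSA was ethanol. The series has 4 libraries of polyadenylated RNA, 1 in each group, and 2 of them are from the line UMSCC47. With 1 library per group the differences have no replicate check, and no p-value can be given.

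Interferons are secreted signals that bind a receptor and activate transcription factors of the STAT and IRF families, which switch on a large set of genes. Many of these genes carry a short promoter sequence, the interferon-stimulated response element, which such factors bind. Among the products are small membrane proteins that restrict viruses, and ISG15, a ubiquitin-like protein that is attached to other proteins by its own activating enzyme, conjugating enzyme and ligase and taken off again by a protease. Head and neck carcinoma cells can express such genes at a steady level without added interferon.

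The promoters are shown first, as a description of one short sequence known from interferon response genes. IFITM2, USP18 and UBE2L6 had the narrowest differences, and of these only UBE2L6 had a promoter sequence to search. The sequence can therefore not be set against the size of the differences within the 10 genes. The core of the interferon-stimulated response element, GAAA followed by any 2 bases and GAAA again, was searched on both strands of the RefSeq promoter windows (GRCh38.p14), which run from 250 bases before to 50 bases after each gene's start. Windows were held for 8 of the 10 genes, with 2 starts each for IFI27 and UBE2L6. IFITM2 and USP18 were not analysed here. The core was found in 7 of the 8 genes, against 3.57% of all 35116 windows, and its presence in genes known for their interferon response is a description and not evidence that a factor was bound. Capitals mark the matches, a match on the opposite strand reading as TTTC, any 2 bases and TTTC, and each line is read 5′ to 3′ on the strand of the gene.
IFI6 (chr1:27672264-27672360, minus strand): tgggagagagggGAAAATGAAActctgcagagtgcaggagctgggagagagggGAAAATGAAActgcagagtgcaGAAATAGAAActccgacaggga
IFI27 (chr14:94110616-94110662, plus strand): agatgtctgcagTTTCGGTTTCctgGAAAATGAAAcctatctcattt
ISG15 (chr1:1013372-1013411, plus strand): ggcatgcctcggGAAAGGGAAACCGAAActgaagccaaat
BST2 (chr19:17405733-17405772, minus strand): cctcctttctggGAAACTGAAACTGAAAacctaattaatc
ISG20 (chr15:88638935-88638968, plus strand): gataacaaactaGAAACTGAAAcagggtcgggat
IFITM3 (chr11:320874-320924, minus strand): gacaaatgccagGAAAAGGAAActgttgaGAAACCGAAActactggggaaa
IFITM1 (chr11:313988-314043, plus strand): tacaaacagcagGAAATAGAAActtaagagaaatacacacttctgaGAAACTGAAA

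IFI6 had 3 matches, ISG20 had 1, and the other 5 genes with a match had 2, which overlap each other in ISG15 and BST2. Only 0.259% of all windows held 2 or more. The matches of IFITM1 and IFITM3 lay closest to the start, and 1 of IFITM1 ran across it. No match was found in either window of UBE2L6, which says only that these letters are absent from those windows.

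**Figure D1:**
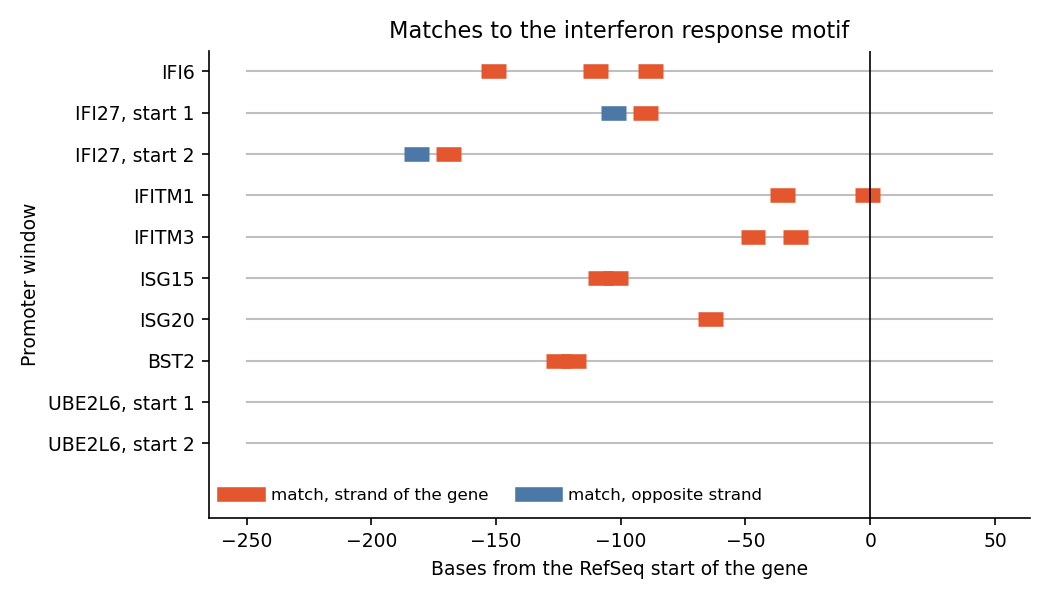
Matches to the response element core (GAAA, any 2 bases, GAAA) in the promoter windows, by distance in bases from the RefSeq start of the gene (x axis), for each window (y axis). The 7 genes with a match carried it before or across the start, and the 2 UBE2L6 windows carried none.

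The CpG dinucleotides that DNA methyltransferases act on were unevenly spread over the same windows. BST2 had 2 CpGs in its 300 bases, IFITM1 had 3, IFI27 had 4 and 6 in its 2 windows, IFITM3 had 8 and IFI6 had 9, all below the median of 14 over all windows. ISG20, at 15, and ISG15, at 20, lay between that median and the upper quartile of 28. Only UBE2L6, with 32 and 41, lay above the upper quartile. Methylation itself was not measured.

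Of the 10 genes, 7 were at least 2-fold higher in the Aza/TSA library and none was at least 2-fold lower. Differences are log2((treated FPKM + 1)/(DMSO FPKM + 1)), where FPKM are fragments scaled to transcript length and to the mapped total of the library, and a 2-fold difference is 1 on this scale. A gene counted as measured when either library gave it 1 FPKM or more, and of all 13558 measured genes 16.1% were at least 2-fold higher and 5.21% at least 2-fold lower. The 10 genes were all above 1 FPKM in the DMSO library, the lowest at 2.85, so none entered the count through its treated value. All 10 had the larger FPKM in the treated library, although UBE2L6 turned the other way under the GC correction given below. Their median difference was 1.41, beside 0.13 over all genes measured. Most of the 10 were already abundant, and of the 8 at 20 FPKM or more in the DMSO library 6 were at least 2-fold higher, where 6.96% of all genes at that level were. At 4-fold the count was 4 of 10, namely IFI6, IFI27, ISG15 and BST2, beside 3.66% of all measured genes. RNA from fewer cells of a type and less RNA per cell cannot be told apart in such libraries.

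**Figure D2:**
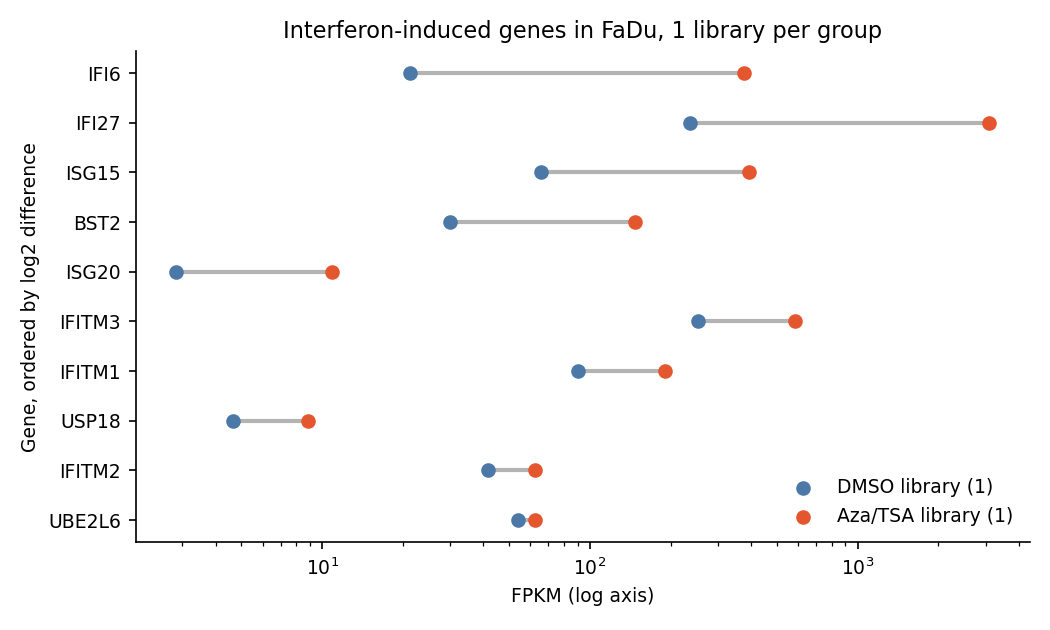
FPKM of the 10 genes (x axis, log scale) in the DMSO library and the Aza/TSA library of FaDu, 1 point per library, ordered by the log2 difference (y axis). On this uncorrected scale the treated point lies to the right for every gene, UBE2L6 being the one that turned to -0.32 after GC correction, by the widest margin for IFI6 (21.4 to 376 FPKM) and the narrowest for UBE2L6 (53.9 to 62.2 FPKM).

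The differences of all genes followed the GC content of their transcripts, with a Spearman correlation of 0.66 across 6642 genes, which share the same 2 libraries. The 10 genes have a median transcript GC content of 56.4%, and the median of measured genes is 49.9%. With the trend on GC content subtracted, 5 of the 10 genes stayed at least 2-fold higher, IFI6, IFI27, ISG15, ISG20 and BST2, and the median of the 10 was 0.89. Over the 11566 measured genes with a GC value, the same correction moved the median from 0.14 to 0.01 and the numbers at least 2-fold higher and lower from 1866 and 558 to 846 and 529. The share at least 2-fold higher went from 16.1% to 7.31% in these genes. Corrected differences of the 10 genes are therefore given beside the uncorrected ones below, and for other genes and lists where 2-fold calls change. What part GC content has in these differences was not tested.

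IFI6 and IFI27 encode small hydrophobic proteins of one family, found at mitochondria and other inner membranes and strongly induced by type I interferon. IFI6 stood at 21.4 FPKM with DMSO and 376 FPKM with Aza/TSA, a log2 difference of 4.07 (3.57 after GC correction). It was the widest difference of the 10, and it ranked 137 among all measured genes. IFI27 stood at 237 and 3094 FPKM, a log2 difference of 3.70 (3.12 after GC correction) and rank 167. By its level IFI27 went from rank 260 to rank 10 of all genes in the table. It alone made up 29.6% of the summed FPKM of the 10 genes with DMSO and 62.7% with Aza/TSA. The sum over the 10 genes was 801 and 4931 FPKM, or 0.163% and 0.954% of the column total. Without IFI27 the sums were 564 and 1837 FPKM, a ratio of 3.26 in place of 6.16.

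Relatives of this family lie on either side of IFI27 on chromosome 14. IFI27L2 stood at 26.8 and 115 FPKM, a log2 difference of 2.06 (1.45 after GC correction), so it was also at least 2-fold higher. IFI27L1 stood at 30.1 and 46.5 FPKM, a difference of 0.61 that did not reach 2-fold. No window of either relative held the response element core. With DMSO all 3 genes, IFI6 and these relatives, were between 21.4 and 30.1 FPKM, and with Aza/TSA the level of IFI6 was above both.

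**Figure D3:**
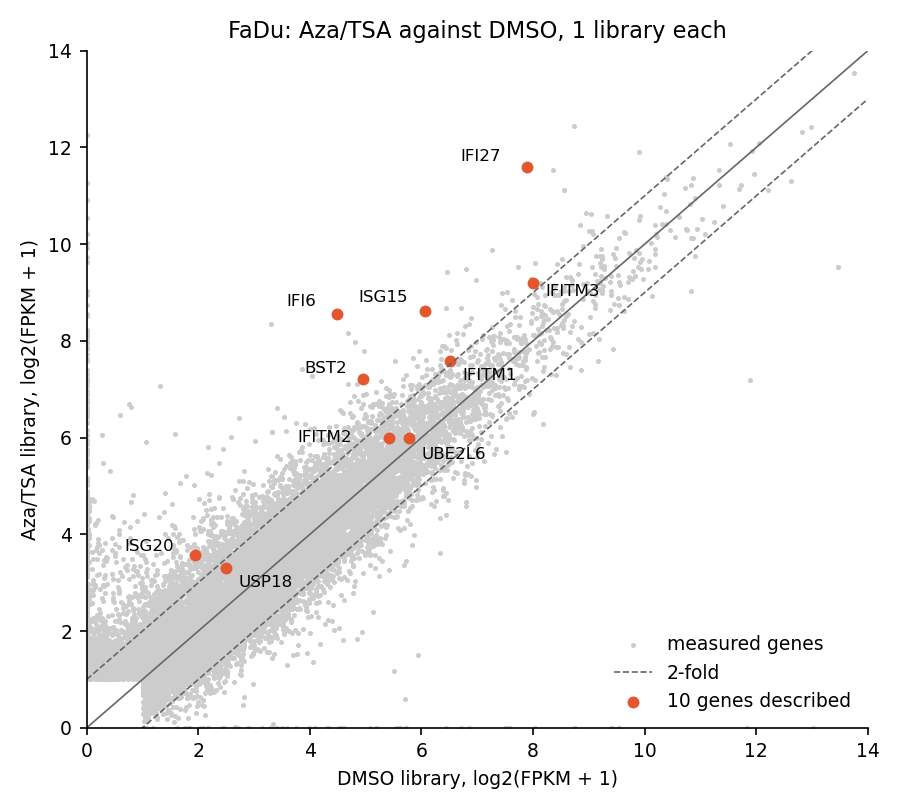
Level of each measured gene in the Aza/TSA library (y axis) against the DMSO library (x axis) of FaDu, both as log2(FPKM + 1), with the 10 genes in colour and dashed lines at 2-fold. Of the 10 genes, IFI6, IFI27, ISG15 and BST2 lie farthest above the upper dashed line, while IFITM2, USP18 and UBE2L6 lie between the dashed lines.

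The IFITM proteins sit in cell and endosome membranes and block the fusion of enveloped viruses, IFITM1 mostly at the cell surface and IFITM2 and IFITM3 mostly in endosomes. IFITM3 was the most abundant of the 3 at 254 and 585 FPKM, a log2 difference of 1.20. IFITM1 stood at 90.0 and 191 FPKM, a difference of 1.08. IFITM2 stood at 41.8 and 62.4 FPKM, a difference of 0.57, short of 2-fold. The order of the 3 levels was the same in both libraries, and IFITM3 made up 65.8% of their sum with DMSO and 69.7% with Aza/TSA. After GC correction the differences were 0.44 for IFITM3, 0.58 for IFITM1 and 0.02 for IFITM2, so that none reached 2-fold. With the trend on transcript length subtracted, IFITM1 also fell short, at 0.98. The 3 genes are neighbours on chromosome 11 with similar coding sequence, and reads that fit more than 1 of them make each single value uncertain. Their summed FPKM, 385 and 838, depends less on how reads were split among the 3 and gave a log2 difference of 1.12 without GC correction. Of more distant relatives, IFITM5, a bone gene, was listed at 0 in both libraries, and IFITM10 was under 0.1 FPKM in both.

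BST2, also called tetherin, holds budding virus particles at the cell surface. It stood at 30.0 FPKM with DMSO and 147 FPKM with Aza/TSA, a log2 difference of 2.25 (1.73 after GC correction). Its difference was the fourth widest of the 10. ISG20, an exonuclease that degrades single-stranded RNA, had the lowest level of the 10 in the DMSO library, 2.85 FPKM, and stood at 10.9 FPKM in the treated library. Its difference was 1.62 (1.19 after GC correction), and at so low a level the added 1 FPKM shrinks the difference, since the plain ratio of the FPKM was 3.81. AEN, a related exonuclease known as a p53 target, is its neighbour on chromosome 15 and stood at 6.79 and 27.1 FPKM, a difference of 1.85 (1.06 after GC correction). The third relative, ISG20L2, a nucleolar exonuclease, stood at 23.8 and 43.5 FPKM, a difference of 0.84.

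In the ISG15 system ISG15 itself was at least 2-fold higher, and UBE2L6 and USP18 were not. ISG15 stood at 65.9 FPKM with DMSO and 394 FPKM with Aza/TSA, a log2 difference of 2.56 (1.65 after GC correction). UBE2L6, the conjugating enzyme (E2) that passes ISG15 on to ligases, stood at 53.9 and 62.2 FPKM, a difference of 0.20. Its sign turned to -0.32 after GC correction, so no direction is given for it. USP18, the protease that removes ISG15 and also holds back signalling at the interferon receptor, stood at 4.65 and 8.89 FPKM, a difference of 0.81 (0.59 after GC correction). USP41, a near-identical copy of USP18 that the current RefSeq table lists as a pseudogene, stood at 1.12 and 3.30 FPKM, and reads can be shared between them. USP18 and USP41 together gave 5.77 and 12.2 FPKM, a plain ratio of 2.11 and a difference of 0.96 on the log2(FPKM + 1) scale, so their sum lies at the 2-fold line and on either side of it by the scale used.

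The partners of ISG15 that are not among the 10 genes had no common direction. UBA7, its activating enzyme (E1), was the lowest at 1.61 and 1.65 FPKM, a difference of 0.02 (-0.62 after GC correction). HERC5, the main ligase (E3) for ISG15 in human cells, stood at 31.3 and 16.9 FPKM, a difference of -0.85, and its relative HERC6 at 9.48 and 13.4, a difference of 0.46. The ligases TRIM25 (19.8 and 25.4 FPKM) and ARIH1 (19.5 and 14.9 FPKM) and the ISG15-modified cap-binding protein EIF4E2 (26.3 and 31.8 FPKM) differed by 0.35, -0.37 and 0.27. Of these 7 partners, USP41 alone was at least 2-fold higher, at 1.02, and none was at least 2-fold lower, a share of 14.3% beside 16.1% of all measured genes. After GC correction USP41 stood at 0.94, HERC5 at -0.37 and ARIH1 at -0.06, and none of the 7 was past 2-fold. FPKM are levels per transcript length, so genes can be set beside each other. ISG15 RNA was 1.22 times that of UBE2L6 with DMSO and 6.33 times with Aza/TSA. Against HERC5 it was 2.11 and 23.3 times, and against USP18 14.2 and 44.3 times. The log2 difference of ISG15 exceeded that of UBE2L6, HERC5 and USP18 by 2.36, 3.41 and 1.75 before GC correction and by 1.97, 2.03 and 1.06 after it. These are ratios of RNA levels, and the amount of ISG15 joined to proteins was not measured.

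**Figure D4:**
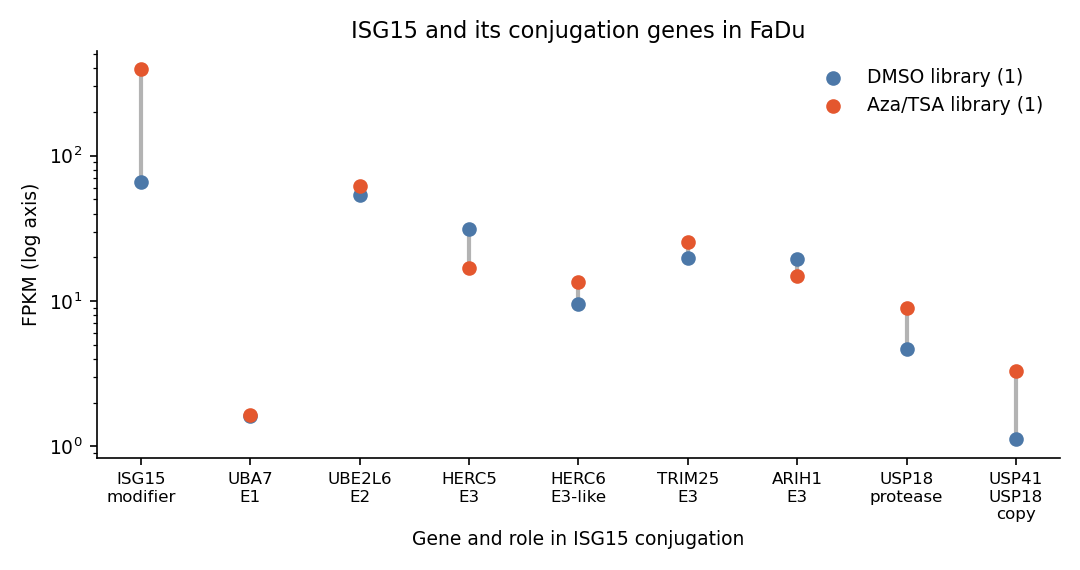
FPKM (y axis, log scale) of ISG15 and of genes that attach it to or remove it from proteins (x axis, with roles), in the DMSO and Aza/TSA libraries of FaDu, 1 point per library. ISG15 went from 65.9 to 394 FPKM, while UBA7 (points overlap) and UBE2L6 stayed near their DMSO level and HERC5 lay lower, at 31.3 and 16.9 FPKM.

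Interferons themselves were hardly detected. Of 21 interferon genes, 13 were listed at 0 in both libraries, IFNB1 among them, and only 2 reached 1 FPKM in either library. The type III interferon IL29 (IFNL1) stood at 0.183 and 2.10 FPKM, a log2 difference of 1.39, so it was at least 2-fold higher. It counted as measured through its treated value alone, and without a GC value it has no corrected difference. IFNE, an epithelial type I interferon, stood at 1.64 and 1.31 FPKM, a difference of -0.19. Of 16 receptor and signal transducer genes, 4 were at least 2-fold higher and 1 lower, with a median of 0.14. IRF7 stood at 3.59 and 27.7 FPKM (2.65), IRF9 at 19.5 and 67.8 FPKM (1.75), IRF3 at 16.9 and 36.4 FPKM (1.07) and STAT2 at 11.0 and 23.1 FPKM (1.01), where the brackets hold log2 differences. The receptor chain IFNGR1 was the lower one, at 73.5 and 29.3 FPKM (-1.30). After GC correction IRF7 (1.63) and IRF9 (1.22) were still at least 2-fold higher, and STAT2 (0.75), IRF3 (0.29) and IFNGR1 (-0.85) fell inside 2-fold.

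Other interferon-induced groups were mixed too. Of 14 OAS, IFIT and MX genes, 7 were at least 2-fold higher and none lower, with a median of 0.93, the widest being MX1, OAS3, OAS1, OAS2, MX2 and IFI44L with differences of 2.57, 1.91, 1.70, 1.68, 1.61 and 1.25. Of 15 genes of MHC class I and peptide loading, 7 were higher, among them HLA-B, TAP1, HLA-F and HLA-C, and 1, ERAP2, lower, with a median of 0.88. After GC correction the counts higher and lower were 8 and 1 with a median of 1.32 for the OAS, IFIT and MX genes, 3 and 1 with a median of 0.41 for MHC class I, and 5 and 0 with a median of 0.89 for the 10 genes. No test can say whether the 10 genes differ from these lists. The response element core was also looked for in the other genes. Of 350 measured genes with a match in a window 16.9% were at least 2-fold higher, beside 14.7% of those with a window and no match. Among the OAS, IFIT and MX genes 9 had a match and 4 of these were at least 2-fold higher, and HERC5, which has a match, stood at the lower FPKM in the treated library. Of 7 genes of MHC class I and peptide loading with a match, 2 were higher, 1 lower and 4 neither. In the 10 genes all 7 with a match were at least 2-fold higher before GC correction and 5 after it. IFITM2 (0.57) and USP18 (0.81), both short of 2-fold, had no window to search, so this count depends on which windows were held. No GC-corrected share is given for the other genes with a match, and no link between match and difference can be read from these counts.

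**Figure D5:**
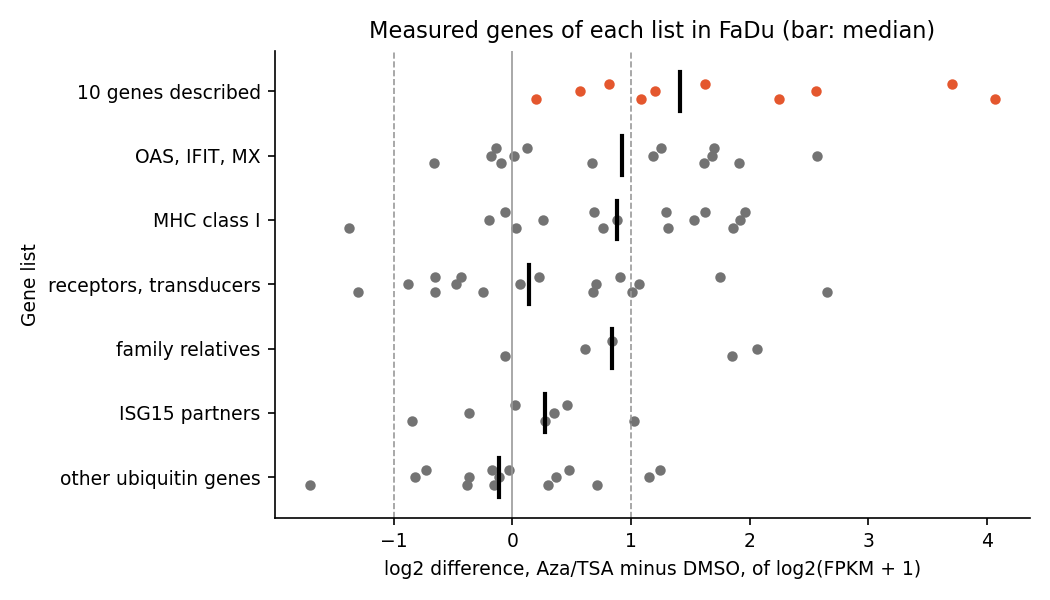
Log2 difference between the Aza/TSA and DMSO libraries of FaDu (x axis) for each measured gene of the lists on the y axis, with a bar at the median and dashed lines at 2-fold. Before GC correction the 10 genes reach from 0.20 (UBE2L6, -0.32 after correction) to 4.07, and the ISG15 partners from -0.85 to 1.02.

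Markers and columns were checked once for the series. All 11 squamous epithelial markers reached 10 FPKM with DMSO and 10 of them with Aza/TSA, where DSG3, TP63 and KRT5 were at least 2-fold lower and KRT14 (1.54, or 0.88 after GC correction) higher. Of 14 leukocyte markers 13 were under 1 FPKM with DMSO and 12 with Aza/TSA, with sums of 2.37 and 7.88 FPKM, the plasmacytoid cell marker LILRA4 at 0 in both, the pan-leukocyte gene PTPRC at 0.0513 and 0.0385 FPKM, and CD3D (1.22, or 0.99 after GC correction) and CD14 (1.09, or 0.47) at least 2-fold higher before that correction. Of 10 fibroblast and endothelial markers, PDGFRA and KDR were at 0 in both libraries, with sums over the list of 1.69 and 7.38 FPKM. COL1A1 and CDH5 were the only ones to reach 1 FPKM, in the treated library. COL1A1 (1.22, or 0.43 after GC correction) and CDH5 (1.14, or 0.71) were at least 2-fold higher before that correction. The part of these markers in the differences was not tested. In the columns of the UMSCC47 libraries, values and gene names were not matched. Their Spearman correlation across genes was 0.12 with each other and 0.11 to 0.12 with FaDu, where the FaDu columns gave 0.91 with each other, and of 10 widely expressed genes 4 and 0 reached 10 FPKM in them, where all 10 did in FaDu. They were not used for any gene. The number of reads behind each FPKM is unknown, and so is the depth.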

How the data were processed

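The authors deposited 1 table of FPKM, per the file headers, with 25593 rows of gene symbols and a column for each of the 4 libraries. The submitters' processing notes name hg19, TopHat 1.3.2 and Cufflinks 2.0.2. Neither the annotation nor the strand setting nor a scaling of the libraries is given in the sources used here. Groups came from the source names. The 45 repeated symbols were summed, none of them a gene described here. Differences were taken with a pseudocount of 1, for genes that reached 1 FPKM in either library, and called at 2-fold. GC content and length were medians over a symbol's GENCODE release 29 transcripts, found for 85.3% of measured genes. Their trend was fitted by lowess (fraction 0.3, both libraries at 5 FPKM or more, statsmodels 0.14.6) and subtracted, a step that was tested on simulated data. The simulation had a straight GC trend and changes unrelated to GC content, in genes at 20 FPKM or more with DMSO. It cannot show whether true changes linked to GC content, or those of low genes, are kept. Work was done in Python 3.11.15 with pandas 2.3.3, and plots with matplotlib 3.10.9. Promoter sequences are from RefSeq, on another build than the expression table, with no coordinates carried between them.

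The 10 genes and the gene lists were chosen with earlier results of these data known. All 10 genes were named, with the ISG15 partners and family relatives, and up to 6 genes past 2-fold from each other list, some of which are not reported here. IFNE, IFNB1, PTPRC, LILRA4, PDGFRA and KDR were named after their values were seen. The alternatives tried were other pseudocounts, filters, scalings, row handling, GC and length correction and a 4-fold threshold.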

Additional observations from a re-analysis of the deposited data

How the results depend on the processing

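The direction of IFI6, IFI27, IFITM1, IFITM2, IFITM3, ISG15, ISG20, BST2 and USP18 was the same under 9 alternatives of pseudocount, filter, scaling, row handling, GC and length correction. For IFI6, IFI27, ISG15, ISG20 and BST2 so was the 2-fold call. Another FPKM filter or row handling could not alter the difference of any of the 10 genes. Another pseudocount could not turn its sign, and IFITM2 stood at only 0.02 after GC correction. IFI6 ranged from 3.57 to 4.13, IFI27 from 3.12 to 3.71, ISG15 from 1.65 to 2.58, BST2 from 1.73 to 2.29 and ISG20 from 1.01 to 1.89. UBE2L6 turned from 0.20 to -0.32 after GC correction, and the median of the 10 genes fell to 0.89. At 4-fold, 4 of the 10 genes were higher. Over all genes the numbers at least 2-fold higher and lower, 2178 and 706, became 893 and 253 with a pseudocount of 5, 846 higher after GC correction (1866 in the same genes before it), 1182 lower with a pseudocount of 0.1, 1152 lower with scaling to TPM, 496 and 91 at 4-fold, and 239 and 269 among genes at 20 FPKM or more in the DMSO library, an alternative chosen after seeing the data. A larger pseudocount shrinks and a smaller one widens the differences of low genes, and a stricter threshold lowers the counts, by construction. Scaling to TPM raised every value, because the FPKM columns summed to only 491963 and 516692, so the pseudocount and filter of 1 weighed less. The genes counted as measured went from 13558 to 14937 by this scaling, and how far it accounts for the TPM counts was not tested. At 20 FPKM or more in the DMSO library the balance also turned, with 6.96% higher and 7.84% lower. For that setting and the GC setting the cause was not tested. No paired analysis was possible because each group has 1 library. Depth is unknown, so the counting error of low values such as ISG20 and USP18 cannot be given.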

Other observations

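The genes next to the 10 on their chromosomes, the nearest 2 protein-coding genes on each side in the current RefSeq table, were mostly not at least 2-fold different. Of 18 such neighbours that were measured, 2 were higher (IFI27L2 beside IFI27 and AEN beside ISG20), 1 was lower (DET1, near ISG20, at 2.89 and 0.786 FPKM) and 15 were neither, with a median log2 difference of 0.62. Over all measured genes 16.1% were at least 2-fold higher and 5.21% at least 2-fold lower, with a median of 0.13. Most genes of the table were thus not past 2-fold either. HES4, a transcriptional repressor beside ISG15, stood at 3.15 and 7.29 FPKM, just under 2-fold on the log2(FPKM + 1) scale, and AGRN on the other side at 12.1 and 24.0 FPKM. Near IFI6, STX12 stood at 10.1 and 7.06 FPKM, and TIMM10, near UBE2L6, at 56.9 and 112 FPKM. These neighbours were named after their values were seen.

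The ubiquitin genes outside the ISG15 system had no common direction. Of 15, UBA1 (32.7 and 78.6 FPKM), the main ubiquitin-activating enzyme, and UBB (536 and 1186 FPKM), a ubiquitin precursor, were at least 2-fold higher, UBE2D1 (15.2 and 3.94 FPKM), a conjugating enzyme, was at least 2-fold lower, and 12 were neither. The share higher was 13.3%, beside 16.1% of all measured genes. After GC correction none of the 15 was at least 2-fold higher or lower.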
